A study of Mus musculus with 8 samples.

Results

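The proteasome genes described here are all genes of the count table whose symbol begins with Psma, Psmb, Psmc, Psmd or Psme and that had at least 10 counts summed over the 8 libraries. Of 37411 genes in the table, 45 carried such a symbol and 43 met the count minimum. The other two, Psma8 and Psmb11, the testis and thymus forms of core subunits, had 0 counts in all 8 libraries. The 43 genes fell into 7 genes of the 20S alpha rings, 7 constitutive 20S beta genes, 5 genes of the immunoproteasome and its activator PA28 (Psmb8, Psmb9, Psmb10, Psme1 and Psme2), 6 ATPase and 11 non-ATPase genes of the 19S regulatory particle, 3 chaperones of its assembly (Psmd5, Psmd9 and Psmd10) and 2 further activators (Psme3 and Psme4). Psmc3ip and Psme2b matched the symbol rule without being subunits: Psmc3ip encodes a partner of the meiotic recombinases, and Psme2b is a retrogene copy of Psme2.

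RNA-seq was made from sorted CD4+ effector T cells with a congenic marker, about 10000 per sample, which had been placed by T cell transfer in Rag1-/- C57BL/6 hosts 6 weeks earlier. Rag1-/- hosts lack T and B cells and keep their myeloid, erythroid and epithelial cells. The donor cells carried a retroviral short hairpin, either shMdr1, against the multidrug transporter gene Abcb1a, or shCD8, the control hairpin, in the LMPd vector. They were taken from small intestine lamina propria or from spleen, and the hosts were Slc10a2 (Asbt) +/+ or -/-, that is, with or without the bile acid transporter of the ileum. All 8 groups thus share the Rag1 deletion of the host, the transfer and a hairpin vector, and there is no group without a hairpin. Each combination of the 3 factors was 1 library, so 4 libraries stood at each level of a factor, and nothing in the labels says whether libraries shared an animal or pooled several. The p-values thus reflect library-to-library spread, part of which may be technical.

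The 26S proteasome is the main protease of the cytosol and nucleus for proteins tagged with ubiquitin. Its 20S core is a barrel of alpha rings around beta rings, and the beta subunits encoded by Psmb5, Psmb6 and Psmb7 cut the substrate. The 19S particle recognises ubiquitin, removes it, and uses a ring of ATPases to unfold the substrate and feed it into the core. In lymphocytes, and in other cells exposed to interferon gamma, newly built cores take up Psmb8, Psmb9 and Psmb10 in place of Psmb5, Psmb6 and Psmb7. Such immunoproteasomes, often capped by the PA28 ring of Psme1 and Psme2, are known for the peptides they supply to MHC class I.

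Library totals ran from 1685225 to 2767105 counts. The library labelled shCD8 small intestine Asbt+/+ stood apart, with 8456 genes detected against 11345 to 13184 in the other 7. Abcb1a was lower under the shMdr1 label than under shCD8 in 3 of the 4 pairs matched for tissue and host. In the small intestine Asbt+/+ pair it stood at 14.8 CPM (depth-scaled counts, with TMM factors) in the library labelled shMdr1 and 8.28 CPM in the library labelled shCD8, against the labels. Hairpins are therefore given as labelled, and the hairpin fold changes of named genes also without both of these libraries. Summed CD4 T cell markers ranged from 3850 to 8780 CPM in small intestine and from 4590 to 5890 CPM in spleen. Neutrophil markers summed to 824 to 7400 CPM in spleen and 8.32 to 173 CPM in small intestine, erythroid markers to 1090 to 41400 and 38.3 to 105 CPM, and myeloid and antigen-presenting markers to 176 to 509 and 565 to 1200 CPM. Epithelial markers reached 383 CPM in small intestine and 87.4 CPM in spleen.

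Psme2 and its retrogene Psme2b carry the first limit on the values, because their reads can hardly be told apart. The coding sequences of both are 717 bases long in the GENCODE vM21 transcripts, differ at 5 bases (99.3% identity) and share an identical run of 311 bases. A stretch of 90 coding bases, from base 454 to 543, holds 3 of these 5 differences, shown in capitals:

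Psme2: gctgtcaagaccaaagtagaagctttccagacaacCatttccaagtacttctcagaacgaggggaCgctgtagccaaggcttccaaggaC

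Psme2b: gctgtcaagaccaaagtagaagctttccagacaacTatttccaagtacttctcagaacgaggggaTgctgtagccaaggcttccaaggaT

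Psme2b had 690 counts over the 8 libraries, 5.35% of the 12905 counts of Psme2, and the share stayed between 4.59% and 6.71% in every library. The counts of this pair are therefore treated as uncertain, and Psme2b is not read as a separate gene. No such overlap existed between the immunosubunits and the subunits they replace. Psmb8 and Psmb5 were 69.1% identical over their aligned coding bases, with a longest identical run of 18 bases. Psmb9 and Psmb6 were 65.8% identical (longest run 11 bases), Psmb10 and Psmb7 65.4% (15 bases), and Psme1 and Psme2 65.0% (14 bases).

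The promoter of Psmb8 is shown because it held, besides that of Psmd2, the only match among the proteasome genes to TTCNNNGAA, the core of the gamma-activated site of interferon gamma target genes. The 60 bases are GRCm38.p6 chr17:34198072-34198131, plus strand, from RefSeq, and the capitals mark the match, 97 bases upstream of the start:

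Psmb8: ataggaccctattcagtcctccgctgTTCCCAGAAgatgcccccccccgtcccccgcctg

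RefSeq promoters, 300 bases from 250 before to 50 after the start, were found for 37 of the 43 genes. TTCNNNGAA, a palindrome, was in 2 of the 37 (5.4%) and in 8.3% of 32851 mouse promoters of the same length. The core of the interferon-stimulated response element was on either strand in 4 of 37 (10.8%; Psmb3, Psmd4, Psmd9 and Psme1) and in 3.4% of all promoters. TGANNNNGC, the core of the antioxidant response element, was on either strand in 21 of 37 (56.8%) and in 41.3% of all promoters. The last of these motifs is short and common. These are matches of letters only. Among the 37 a gene with several promoters was counted once, on a match in any of them, while the share of all promoters counts each promoter. The 2 kinds of share are therefore not strictly alike.

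All 43 genes had counts in every library and passed the filter on low counts, which kept 10000 genes. Together they took 0.677 to 0.957% of the counts of a library. Set per kilobase of transcript so that genes can be compared, the median mean level was 212.7 CPM per kb for the 20S alpha genes, 206.7 for the constitutive 20S beta genes and 247.2 for the immunoproteasome and PA28 genes. It was 51.09 CPM per kb for the 19S ATPase genes, 37.62 for the 19S non-ATPase genes, 14.62 for the 2 further activators and 8.345 for the 3 chaperones. By these medians the core and PA28 transcripts were several times as abundant per length as the 19S transcripts that the symbol rule covers. Single genes overlapped, with the core gene Psmb7 at 42.29 and the 19S gene Psmd4 at 103.7 CPM per kb. The rule leaves out Shfm1, a small subunit of the 19S lid, which stood at 1450 to 3830 CPM over the libraries. Of the 43 genes the highest was Psme2 at 767.3 CPM per kb and the lowest the chaperone Psmd5 at 4.208. Differences in cell number and in RNA per cell cannot be told apart in such bulk samples.

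Within the core the levels were unequal. Among the constitutive catalytic subunits, Psmb6, the caspase-like subunit, stood at 482 CPM per kb, Psmb5, the chymotrypsin-like subunit, at 47.5 and Psmb7, the trypsin-like subunit, at 42.3. The immunosubunits were more even, with Psmb8 at 247, Psmb9 at 219 and Psmb10 at 175 CPM per kb. Psmb8 and Psmb10 transcripts therefore exceeded those of the subunits they replace, Psmb5 and Psmb7, while Psmb9 did not exceed Psmb6 per length. The non-catalytic beta genes Psmb2 and Psmb1 were the highest of the core, at 545.5 and 522.2 CPM per kb.

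Levels varied less between libraries than those of most genes. The median SD of log2(CPM + 1) over the 8 libraries was 0.43 for the 43 genes (range 0.17 to 1.43) and 0.96 for all tested genes. Among genes of like abundance the gap was smaller or absent. At a mean of 300 to 1300 CPM the median SD was 0.46 for 9 proteasome genes and 0.43 for all genes in that range. At 100 to 300 CPM it was 0.30 for 13 proteasome genes against 0.46. Psmd6 was the steadiest, between 46.6 and 64.6 CPM, and 15 of the 43 genes differed by less than 2-fold between their lowest and highest library. Psmc3ip ranged most, from 1 to 87 counts, and Psmd3, Psmd13 and Psmd10 also spanned 5-fold or more.

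**Figure D1:**
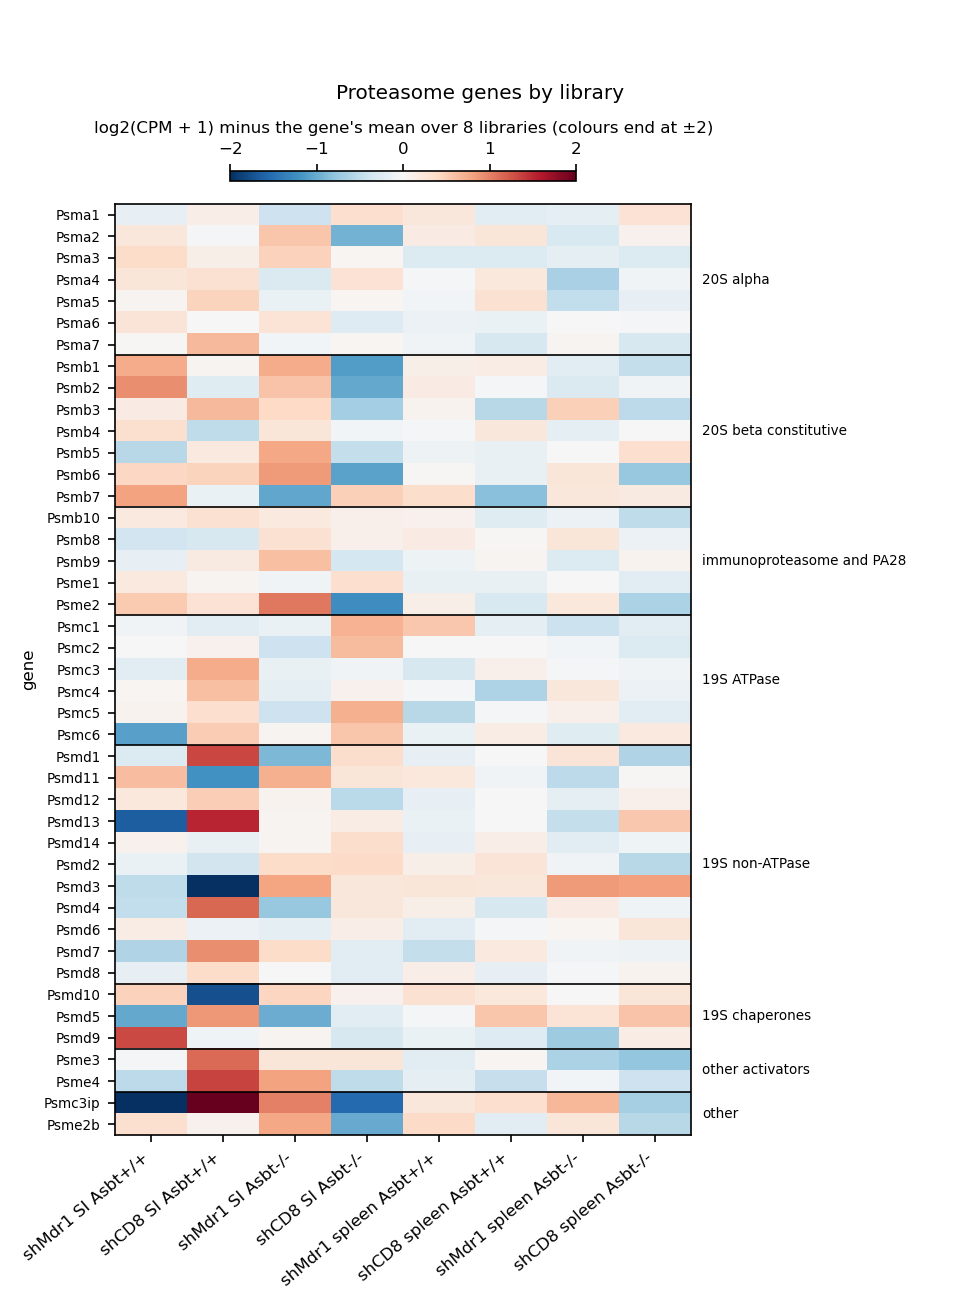
Each row is a proteasome gene, grouped by role, and each column is 1 library; colour gives log2(CPM + 1) minus the mean of that gene over the 8 libraries. The 4 spleen columns on the right are pale, and the strongest colours sit in the small intestine columns, where 41 of the 43 genes had their highest value.

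The small intestine libraries differed among themselves far more than the spleen libraries. The coefficient of variation over 4 libraries had a median of 35.7% in small intestine and 18.2% in spleen, and 38 of the 43 genes (88.4%) varied more in small intestine, as did 82.7% of all tested genes. For 41 genes the highest library was a small intestine one (95.3%, against 62.9% of all tested genes), and for 28 the lowest was too (65.1%, against 77.4%). The library labelled shCD8 small intestine Asbt+/+, with few genes detected, was the highest for 17 proteasome genes (39.5%, against 20.1% of all genes) and the lowest for 4 (9.3%, against 39.5%). All 43 genes had counts in that library, and the shares of all genes were not matched for abundance. The library labelled shCD8 small intestine Asbt-/- was the lowest for 11 genes (25.6%, against 9.16%), among them Psma2, Psmb1, Psmb2, Psmb3, Psmb6, Psmb9 and Psme2.

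Summed by role, these 2 libraries and their shMdr1 partners gave the largest contrasts. The constitutive 20S beta genes summed to 3308 CPM (labelled shMdr1) and 2220 CPM (labelled shCD8) in small intestine of Asbt+/+ hosts, and to 3287 and 1189 CPM with Asbt-/- hosts. In spleen the same sums were 2256 and 2138 CPM in Asbt+/+ hosts and 2016 and 1684 CPM in Asbt-/- hosts. The sum was thus higher under the shMdr1 label in all 4 pairs, by little in spleen and by far more in small intestine.

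The 17 genes of the 19S particle that the symbol rule covers went the other way in small intestine. Their sum was 1176 CPM (labelled shMdr1) and 1792 CPM (labelled shCD8) in Asbt+/+ hosts, and 1270 and 1569 CPM in Asbt-/- hosts. In spleen it lay between 1269 and 1300 CPM in all 4 libraries, an SD of 13.0 CPM against 282 CPM in small intestine. The ratio of the 14 constitutive core genes to the 17 regulatory genes was accordingly 4.96 and 2.68, then 4.65 and 2.02, in small intestine (Asbt+/+ then Asbt-/- hosts, the shMdr1 label first in each), and 3.57 and 3.35, then 3.10 and 3.01, in spleen. This ratio was formed after its parts had been seen and is given as a description, with no test. The 19S subunits Shfm1 and Adrm1 lie outside the symbol rule and are in neither the sum nor the ratio. Shfm1 alone stood at 2180 and 2810, then 3370 and 3830 CPM, in small intestine and at 2480 and 2790, then 1450 and 2290 CPM, in spleen. The even spleen sum thus holds for the 17 genes and not for the whole particle.

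The sums of the alpha genes and of the immunoproteasome genes spanned less than that of the beta genes. The alpha sum was 2525, 2579, 2613 and 1979 CPM in the small intestine libraries labelled shMdr1 Asbt+/+, shCD8 Asbt+/+, shMdr1 Asbt-/- and shCD8 Asbt-/-, and 2270, 2223, 1984 and 2190 CPM in the spleen libraries in the same order. The immunoproteasome and PA28 sum was 2249, 2165, 2969 and 1698 CPM in small intestine and 2053, 1807, 2107 and 1616 CPM in spleen. Psme2 spanned the most CPM of these 5 genes.

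**Figure D2:**
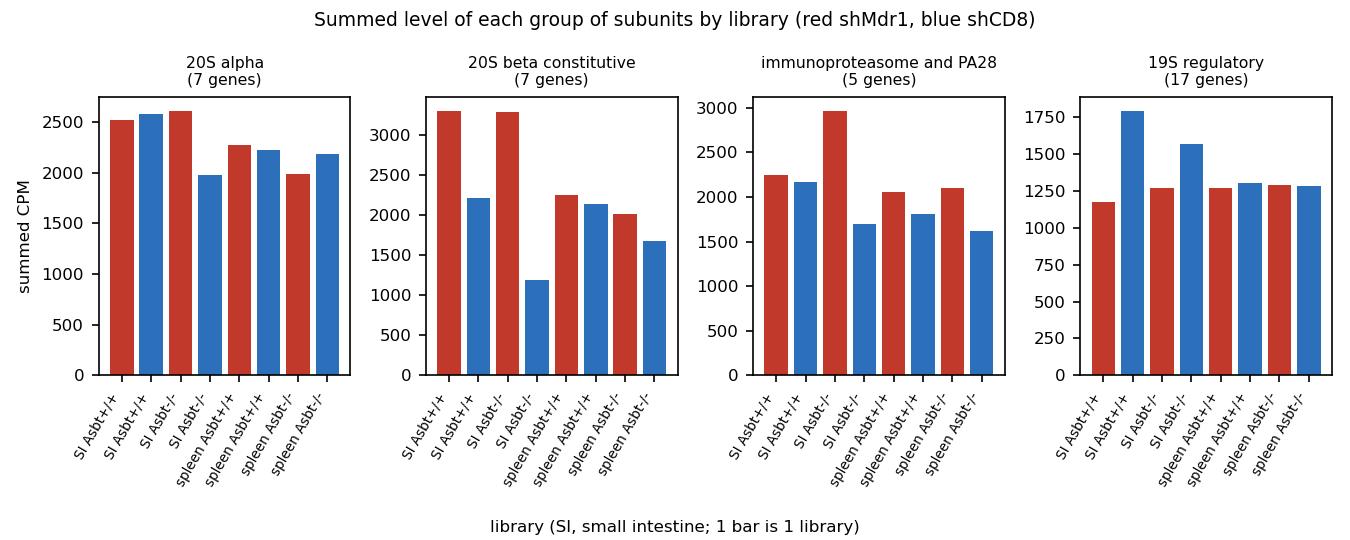
Bars give the summed CPM of the alpha genes, the constitutive beta genes, the immunoproteasome and PA28 genes and the 19S genes, 1 bar per library, red for shMdr1 and blue for shCD8 as labelled; each panel has its own scale from 0. The beta bars range from 1189 to 3308 CPM, and the 4 spleen bars of the 19S genes, which leave out Shfm1, lie between 1269 and 1300 CPM.

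Psmb8, the chymotrypsin-like immunosubunit also known as LMP7, stood in small intestine at 303 CPM (labelled shMdr1) and 316 CPM (labelled shCD8) in Asbt+/+ hosts and at 489 and 427 CPM in Asbt-/- hosts. In spleen it stood at 448 and 405 CPM in Asbt+/+ hosts and at 468 and 365 CPM in Asbt-/- hosts. Its lowest libraries were both from small intestine of Asbt+/+ hosts, and no pair of groups was free of overlap. Its counterpart Psmb5 stood at 27.6 and 46.9 CPM, then 70.5 and 29.1 CPM, in small intestine, and at 37.9 and 37.0, then 40.6 and 51.7 CPM, in spleen, in the same order. The ratio of Psmb8 to Psmb5 counts ran from 6.72 to 14.6.

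Psmb9, the immunosubunit also known as LMP2, stood at 258 and 330 CPM, then 439 and 228 CPM, in small intestine (Asbt+/+ then Asbt-/- hosts, the shMdr1 label first in each), and at 272 and 301, then 239 and 305 CPM, in spleen. It was higher under the shMdr1 label in 1 of the 4 pairs, that from small intestine of Asbt-/- hosts. Psmb6 stood at 474 and 482, then 643 and 169 CPM, in small intestine and at 361 and 319, then 419 and 209.7 CPM, in spleen. The lowest Psmb6 libraries were thus both labelled shCD8 and came from Asbt-/- hosts. The ratio of Psmb9 to Psmb6 counts ran from 0.545 to 1.45.

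Psmb10, the trypsin-like immunosubunit MECL-1, stood at 258 and 278, then 258 and 241 CPM, in small intestine and at 240.2 and 190.0, then 208 and 159 CPM, in spleen. All 4 small intestine values lay above all 4 spleen values. Psmb7 stood at 79.6 and 41.0, then 21.4 and 63.1 CPM, in small intestine and at 58.3 and 24.9, then 52.9 and 51.2 CPM, in spleen, with no order by tissue, hairpin or host. The ratio of Psmb10 to Psmb7 counts ran from 3.08 to 12.

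The PA28 genes differed from each other. Psme1, the alpha subunit of the activator, was among the steadiest, at 473 and 428, then 391.9 and 522 CPM, in small intestine and 373 and 372, then 416 and 359 CPM, in spleen. Psme2, the beta subunit, stood at 957 and 813, then 1391 and 280.1 CPM, in small intestine and at 720.1 and 539, then 776 and 429 CPM, in spleen. Psme2 was higher under the shMdr1 label in all 4 pairs, most of all in small intestine of Asbt-/- hosts, while Psme1 was lower there.

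**Figure D3:**
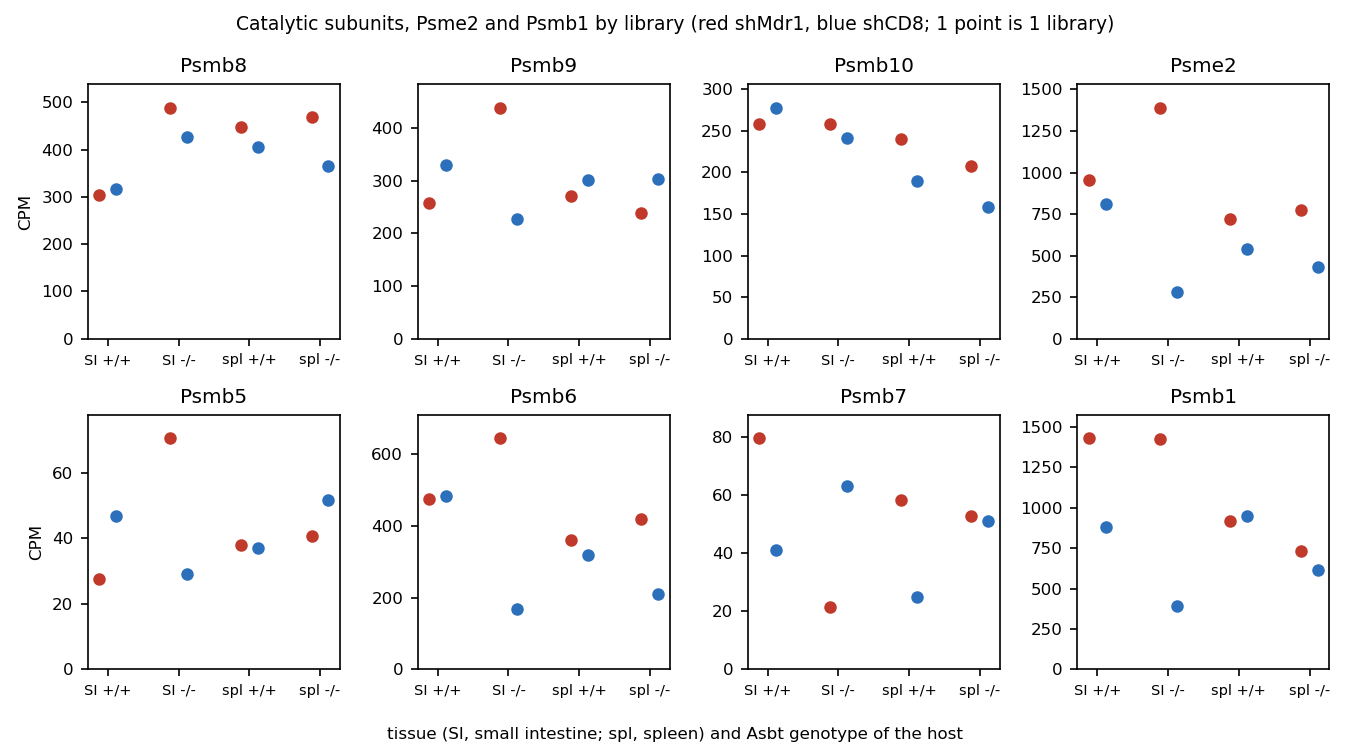
CPM of the 3 immunosubunits and Psme2 (top) and of the 3 constitutive catalytic subunits and Psmb1 (bottom) in each library, red for shMdr1 and blue for shCD8 as labelled, by tissue and host; each panel has its own scale from 0. For Psme2, Psmb9, Psmb5, Psmb6, Psmb7 and Psmb1 the red and blue points lie farthest apart in small intestine of Asbt-/- hosts, where Psme2 stood at 1391 and 280.1 CPM; for Psmb8 and Psmb10 they do so in spleen.

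Whether cells from small intestine and from spleen differed was tested with an additive edgeR model of tissue, hairpin and host on all 8 libraries. Fold changes below are log2 values of small intestine over spleen, ± the approximate SE from the quasi-likelihood F statistic. No proteasome gene passed an adjusted p of 0.05 (Benjamini-Hochberg over 10000 genes), a threshold that 0.62% of all tested genes passed. DESeq2 (2.49% of its tested genes) and limma-voom (0.73%) also called 0 of the 43. At an unadjusted p under 0.05 stood 2 proteasome genes (4.65%), against 8.45% of all genes. The values were nevertheless mostly on one side: 34 of the 43 log2 fold changes (79.1%) were above 0, with a median of 0.17, while 41.1% of all tested genes were above 0, with a median of -0.17. The count was 26 of 43 without the shCD8 small intestine Asbt+/+ library and 29 of 43 without both small intestine Asbt+/+ libraries.

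The smallest p in tissue belonged to Psme3, the gene of PA28 gamma, the nuclear activator. It stood at 52.0 and 118 CPM, then 63.0 and 63.1 CPM, in small intestine and at 45.4 and 54.6, then 33.9 and 30.6 CPM, in spleen. Its mean was 74.1 ± 29.9 CPM (SD, n = 4) against 41.1 ± 10.99, with a log2 fold change of 0.84 ± 0.35, higher in 4 of 4 pairs, and an adjusted p of 0.537 in the edgeR test. The groups overlapped, and the value of 118 CPM came from the library with few genes detected.

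Psma3, an alpha ring gene, had nearly equal values in the spleen libraries. It stood at 289 and 243, then 309.5 and 229.9 CPM, in small intestine and between 185 and 196 CPM in all 4 spleen libraries. The means were 268 ± 37.6 and 188 ± 5.39 CPM, the log2 fold change was 0.50 ± 0.22, and the adjusted p was 0.574 (edgeR). The 4 small intestine libraries did not overlap the 4 spleen libraries for Psma3 and Psmb10, that is, for 2 of 43 genes (4.65%), against 3.39% of all genes higher in small intestine in this way. No proteasome gene was lower without overlap, against 4.68% of all genes. Psmb10 averaged 259 ± 15.0 against 199 ± 34.2 CPM (log2 0.39 ± 0.22, adjusted p = 0.706, edgeR).

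Psme4, the gene of the activator PA200, gave the second largest positive value, 0.79 ± 0.49, but its small intestine values of 30.2 and 114, then 76.9 and 30.3 CPM, lay on both sides of the spleen range of 31.4 to 41.9 CPM. Without the shCD8 small intestine Asbt+/+ library the value of Psme4 was 0.09. The most negative value was that of Psmd3, a subunit of the 19S lid, at -1.02 ± 0.53 (adjusted p = 0.664, edgeR). Psmd3 stood at 22.5 and 4.34, then 57.1 and 38.3 CPM, in small intestine and at 38.7 and 38.3, then 59.7 and 57.9 CPM, in spleen, lower in small intestine in 4 of 4 pairs. The value of 4.34 CPM rests on 11 counts in the library with few genes detected, and without both small intestine Asbt+/+ libraries the fold change was -0.32. The chaperone genes Psmd5 (-0.69 ± 0.64) and Psmd10 (-0.31 ± 0.49) were the next most negative. Psmc3ip, on 1 to 87 counts per library, was at 0.61 ± 1.19.

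By role, the 6 ATPase genes were all above 0 in tissue (median 0.17, 4 of 6 without both small intestine Asbt+/+ libraries), with Psmc5 at 0.36 ± 0.30. The alpha genes were above 0 for 5 of 7 (median 0.21), the constitutive beta genes for 6 of 7 (0.15), the immunoproteasome and PA28 genes for 4 of 5 (0.26) and the 19S non-ATPase genes for 8 of 11 (0.14). Of the immunoproteasome and PA28 genes, Psme2 was at 0.40 ± 0.33, Psme1 at 0.26 ± 0.22, Psmb9 at 0.16 ± 0.27 and Psmb8 at -0.16 ± 0.24. Psmb6, Psmb7 and Psmb5 were at 0.39 ± 0.32, 0.15 ± 0.49 and 0.05 ± 0.42. The values of Psme2 and Psmb6 turned on the small intestine Asbt-/- pair: without its shMdr1 library they were 0.04 and 0.09, and without its shCD8 library 0.70 and 0.66. The myeloid and antigen-presenting, neutrophil, erythroid and epithelial markers given above differ by tissue as well, and their part in these values was not tested. In the first of these lists H2-Aa (2.46), H2-Eb1 (2.41), H2-Ab1 (2.32) and Cd74 (2.13) were the highest. Cd68, Csf1r and Lyz2 were at 0.78, 0.69 and 0.57, each higher in 2 of 4 pairs, and Adgre1 was at -1.91. Of the 7 epithelial genes 6 were above 0, and Tff2 and Defa24 passed in edgeR. Tissue and the isolation of cells from it cannot be told apart.

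**Figure D4:**
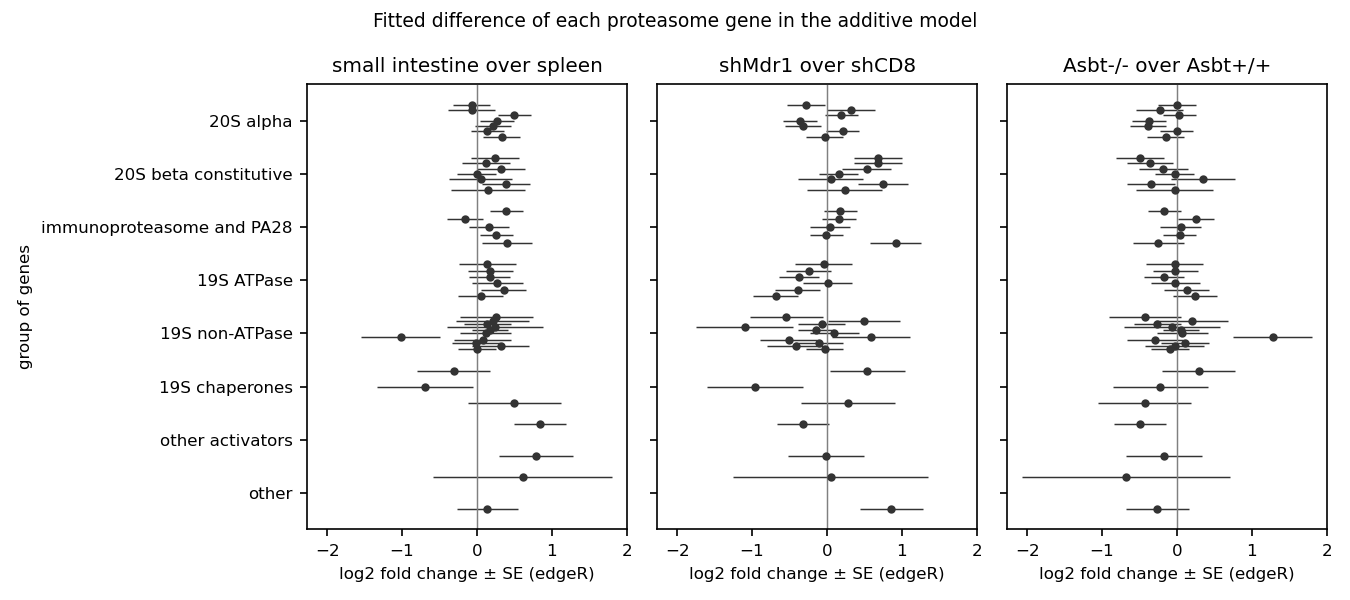
Points are the log2 fold changes of the 43 genes with the SE from the edgeR fit, by role, for small intestine over spleen, shMdr1 over shCD8 as labelled, and Asbt-/- over Asbt+/+ hosts, on a shared axis. All 7 constitutive beta genes are above 0 in the hairpin panel and 5 of the 6 ATPase genes below 0, and no gene passed the adjusted threshold in any panel.

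The hairpin comparison asks whether T cells carrying the Mdr1 hairpin differ from those with the control hairpin. No proteasome gene passed the edgeR test, as was true of all 10000 genes (0% called). DESeq2 (0.0228% of its tested genes) and limma-voom (0%) called 0 of the 43 as well. At an unadjusted p under 0.05 stood 3 of the 43 (6.98%), against 2.99% of all genes. The 43 genes were split evenly, with 22 above 0 and a median log2 fold change of 0.01, beside 55.1% above 0 and a median of 0.09 for all genes. Within this balance the roles parted. All 7 constitutive beta genes were above 0 (median 0.53), while 1 of 6 ATPase genes and 3 of 11 non-ATPase genes of the 19S particle were (medians -0.31 and -0.11). The alpha genes were above 0 for 3 of 7 (median -0.03). Without both small intestine Asbt+/+ libraries, 23 of the 43 genes were above 0, among them 5 of 7 beta genes, 1 of 6 ATPase genes and 5 of 11 non-ATPase genes. Markers of other cells were uneven between hairpins too, with 0 called in edgeR. All 5 neutrophil genes (median 1.28) and all 4 erythroid genes (median 1.3) were above 0. Erythroid sums reached 41400 CPM under shMdr1 and 5080 CPM under shCD8. Of the myeloid and antigen-presenting genes 4 of 8 were above 0, and of the epithelial genes 4 of 7. Their part in the hairpin values was not tested.

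Psme2, described above library by library, had the smallest p of the hairpin comparison. Its mean was 961 ± 304 CPM in the libraries labelled shMdr1 and 515 ± 225 CPM in those labelled shCD8 (n = 4 each), a log2 fold change of 0.92 ± 0.34 and an adjusted p of 0.999 (edgeR). The groups overlapped, since the shCD8 small intestine Asbt+/+ library at 813 CPM lay above 2 of the shMdr1 libraries. Without both small intestine Asbt+/+ libraries the value was 1.18, and without the shCD8 small intestine Asbt-/- library it was 0.57. Psme2b, with which reads can be shared, gave 0.86 ± 0.42 (1.08 without both small intestine Asbt+/+ libraries).

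Among the beta genes, Psmb6 averaged 474 ± 122 CPM under shMdr1 and 295 ± 140 CPM under shCD8 (log2 0.75 ± 0.33, adjusted p = 0.999, edgeR), higher in 3 of 4 pairs. Psmb1, a non-catalytic beta gene, stood at 1430 and 883, then 1425 and 393 CPM, in small intestine and at 919.5 and 947, then 732 and 614 CPM, in spleen, with a log2 fold change of 0.68 ± 0.32. Psmb2 stood at 833 and 368, then 649 and 213 CPM, in small intestine and at 488 and 427, then 355 and 416 CPM, in spleen (0.68 ± 0.32). For both genes the gap between hairpins was wide in small intestine and narrow or inverted in spleen. Psmb7 and Psmb5 were at 0.24 ± 0.50 and 0.05 ± 0.43. Without both small intestine Asbt+/+ libraries the values were 1.03 for Psmb6, 0.67 for Psmb1, 0.51 for Psmb2, -0.09 for Psmb7 and 0.32 for Psmb5. Without the shCD8 small intestine Asbt-/- library alone Psmb6, Psmb1 and Psmb2 were at 0.43, 0.37 and 0.40.

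The 3 immunosubunits lay near 0, with Psmb10 at 0.18 ± 0.22, Psmb8 at 0.16 ± 0.23 and Psmb9 at 0.04 ± 0.27, as did Psme1 at -0.01 ± 0.22. Leaving out the small intestine Asbt+/+ pair put them at 0.27, 0.23, 0.15 and -0.07. Psme2 therefore stood apart from its partner Psme1 and from the immunosubunits in the hairpin values, a difference between genes that was not tested.

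On the negative side, Psmc6, a 19S ATPase, stood at 52.6 and 161, then 117 and 166 CPM, in small intestine and at 102 and 125, then 94.8 and 129 CPM, in spleen. All 4 values labelled shMdr1 lay below all 4 labelled shCD8, with means of 91.5 ± 27.4 and 145 ± 21.4 CPM and a log2 fold change of -0.68 ± 0.30 (adjusted p = 0.999, edgeR). Its fold change was -0.42 without both small intestine Asbt+/+ libraries and -0.41 without the shMdr1 library of that pair alone. Lower values under shMdr1 without overlap were found for Psmc6 only, 1 of 43 genes (2.33%), beside 1.34% of all genes. In the other direction the row of Psme2b alone was free of overlap, beside 1.45% of all genes; its counts cannot be separated from those of Psme2, which overlapped. Psmd13, a 19S lid subunit, was at -1.10 ± 0.65, a value that leans on 9 and 152 counts in the small intestine Asbt+/+ pair; without that pair it was -0.42. The chaperone Psmd5 was at -0.96 ± 0.64 and the alpha gene Psma4 at -0.36 ± 0.23, each lower under the shMdr1 label in 4 of 4 pairs (-0.59 and -0.47 without the small intestine Asbt+/+ pair).

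The hairpin values of the 43 genes also followed the length of the coding sequence. Across the 43 genes Spearman's rho between coding length and log2 fold change was -0.53, against 0.02 across 9075 tested genes with a transcript. Of the 24 genes with under 900 coding bases 18 were above 0 (median 0.18), and of the 19 longer genes 4 were (median -0.14). Core subunits are small proteins and regulatory subunits larger ones, so role and length cannot be told apart in this description. The genes share their libraries and are not independent. For tissue rho was -0.19 in both sets, and for host 0.32 and 0.17.

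The host comparison asks whether the loss of Asbt in the host, the carrier that takes up bile acids in the ileum, goes with a difference in the transferred cells. No proteasome gene passed the edgeR test (0% of all genes did), and DESeq2 (0.0794% of its tested genes) and limma-voom (0%) called 0 of the 43. At an unadjusted p under 0.05 stood 1 gene (2.33%), against 2.71% of all genes. Of the 43 genes 13 (30.2%) were above 0, with a median log2 fold change of -0.06 for Asbt-/- over Asbt+/+, while 57.3% of all genes were above 0, with a median of 0.11. Many values were close to 0: regardless of sign their median was 0.18, against 0.46 for all genes. Leaving out 1 library at a time, the median of the 43 genes ranged from -0.19 to 0.0, and without both small intestine Asbt+/+ libraries it was -0.03. No gene was free of overlap between hosts, beside 1.78% of all genes higher and 0.93% lower in this way. Markers of other cells were uneven between hosts as well, with 0 of these genes called in edgeR. All 5 neutrophil genes were below 0 (median -1.93), with sums of 8.32 to 2990 CPM in Asbt-/- and 106 to 7400 CPM in Asbt+/+ hosts, as were all 7 epithelial genes (median -4.23; 0 to 39.6 and 12.9 to 383 CPM). Of the 4 erythroid genes 3 were above 0 (median 1.22), and of the 8 myeloid and antigen-presenting genes 2 (median -0.44). Their part in the host values was not tested.

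That gene was Psmd3, at 25.9 ± 16.3 CPM in Asbt+/+ and 53.3 ± 10.02 CPM in Asbt-/- hosts (n = 4 each), a log2 fold change of 1.28 ± 0.53, higher in 4 of 4 pairs (adjusted p = 0.996, edgeR). In the spleen pairs it stood at 38.7 and 59.7 CPM (shMdr1) and at 38.3 and 57.9 CPM (shCD8), and in the small intestine pairs at 22.5 and 57.1 CPM and at 4.34 and 38.3 CPM. The direction was shared, and the size was greatest where the Asbt+/+ library had few genes detected; without both small intestine Asbt+/+ libraries the value was 0.61. Psmb5 (0.35 ± 0.43) and Psmd10 (0.29 ± 0.49) followed.

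Psma4 stood at 192.6 CPM (labelled shMdr1) and 199.5 CPM (labelled shCD8) in small intestine with Asbt+/+ hosts and at 132 and 198 CPM with Asbt-/- hosts. In spleen it stood at 159 and 188, then 103 and 154 CPM, in the same order. It was lower in Asbt-/- hosts in 4 of 4 pairs, by more under the shMdr1 label, and its log2 fold change of -0.37 ± 0.23 did not pass (adjusted p = 0.996, edgeR). Psmb1 (-0.49 ± 0.32), Psme3 (-0.49 ± 0.35) and Psmc3ip (-0.68 ± 1.39) were the most negative. The immunoproteasome and PA28 genes lay on both sides of 0, from Psmb8 at 0.26 ± 0.24 through Psmb9 (0.05 ± 0.27), Psme1 (0.04 ± 0.22) and Psmb10 (-0.17 ± 0.22) to Psme2 (-0.25 ± 0.34). Psmc6 had the smallest p of the ATPase genes, at 0.24 ± 0.29.

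Whether one factor changed the effect of another was tested with 1 interaction term at a time. No proteasome gene passed the edgeR test in any of the 3 (0% of all genes in each), and DESeq2 (0%, 0.198% and 0% of its tested genes) and limma-voom (0%, 0% and 0.03%) called 0 of the 43, in the order tissue by hairpin, tissue by host and hairpin by host. At an unadjusted p under 0.05 stood 3, 0 and 1 proteasome genes, against 1.69%, 5.94% and 1.19% of all genes. For tissue by hairpin these were Psmd4, the gene of a ubiquitin receptor of the 19S particle (log2 -1.69 ± 0.56), Psmb2 (1.41 ± 0.49) and Psmd1, a large scaffold subunit (-1.88 ± 0.81). For hairpin by host it was Psmb6 (1.37 ± 0.52).

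Psmd4 shows the pattern behind the first of these. It stood at 91.2 and 284, then 75.7 and 150.4 CPM, in small intestine, lower under the shMdr1 label, and at 138 and 102, then 143 and 121 CPM, in spleen, higher under it. Psmd1 was also lower under the shMdr1 label in small intestine, at 35.3 and 109, then 22.6 and 54.7 CPM, but lay on both sides in spleen, at 37.9 and 43.0, then 51.1 and 27.8 CPM. All 6 ATPase genes had an interaction value below 0 (median -0.67), and 5 of 7 constitutive beta genes a value above 0 (median 0.43), beside a median of 0.16 for all genes. Without the shCD8 small intestine Asbt-/- library Psmd4 passed the edgeR test (-2.11 ± 0.50), as did 6.94% of all genes in that fit. The only shCD8 small intestine library left in it was the Asbt+/+ one, with few genes detected and Psmd4 at 284 CPM. Without both small intestine Asbt+/+ libraries 6 of the 43 genes (14.0%) passed for tissue by hairpin in the edgeR test, against 5.34% of all genes. These were Psma2 (1.74 ± 0.47), Psmb1 (1.75 ± 0.48), Psme2 (1.67 ± 0.47), Psmb2 (1.62 ± 0.45) and Psmb6 (1.34 ± 0.44) above 0 and Psmb7 (-2.19 ± 0.61) below it, with adjusted p from 0.00749 to 0.0492. That fit, added after seeing the data, has 1 residual degree of freedom and 1 small intestine pair, the Asbt-/- one, so that its calls rest on these 2 libraries. In it Psmd4 (-1.33 ± 0.47, adjusted p = 0.0657) and Psmd1 (-1.61 ± 0.64, adjusted p = 0.13) did not pass, 1 of 6 ATPase genes and 6 of 7 beta genes were above 0, and Psmb6 in hairpin by host was at 1.29 ± 0.75. Without the shMdr1 small intestine Asbt+/+ library Psmd3 passed in tissue by host (2.70 ± 0.70), as did 13.3% of all genes. The only small intestine Asbt+/+ library left there was again the one with few genes detected, with Psmd3 at 4.34 CPM.

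The balance of catalytic subunit transcripts was tested as the log2 ratio of each immunosubunit to the subunit it replaces in the same library, which does not depend on depth. A ratio of transcripts does not show which subunits were built into cores. With 4 libraries against 4, the exact permutation test (two-sided) cannot go below p = 0.0286, and 9 ratios by factor were tested. The ratio of Psmb9 to Psmb6 averaged -0.66 ± 0.22 (log2, SD, n = 4) under the shMdr1 label and 0.08 ± 0.50 under shCD8, lower in 4 of 4 pairs, a difference of -0.74 (exact permutation p = 0.0571, adjusted p = 0.514). The difference was -0.88 without both small intestine Asbt+/+ libraries (exact permutation p = 0.1). With so few libraries the test cannot give a smaller p. Every remaining value labelled shMdr1 lay below every remaining one labelled shCD8. The other 8 tests had p from 0.343 to 0.971 (exact permutation) and an adjusted p of 0.971. Psmb8 to Psmb5 averaged 3.21 ± 0.54 in small intestine and 3.33 ± 0.35 in spleen, and Psmb10 to Psmb7 averaged 2.49 ± 0.86 and 2.14 ± 0.55. The differences between tissues in these 2 ratios were smaller than the SD within a tissue.

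Of the genes around the proteasome, 53 in 7 lists were tested: assembly factors outside the symbol rule, further 19S subunits and enzymes, regulators of proteasome genes, ubiquitin genes, shuttle factors and the VCP complex, interferon gamma signalling, and class I peptide loading. For tissue, 1 of 53 passed the edgeR test (0.62% of all genes did), and 5 (9.43%) had an unadjusted p under 0.05, near the 8.45% of all genes. Above 0 were 35 of the 53, a larger share than the 41.1% of all genes. The gene that passed was Sqstm1, which encodes p62, a carrier of ubiquitinated cargo to autophagy. Sqstm1 stood at 200 and 342, then 260.0 and 267 CPM, in small intestine and at 80.8 and 112, then 124 and 119 CPM, in spleen, so that every small intestine value lay above every spleen value. It was 2.45-fold higher in small intestine (log2 1.29 ± 0.25, 4 of 4 pairs, adjusted p = 0.048, edgeR). The direction was kept in all 18 alternatives and the call in 6. The call was lost when any 1 of the 8 libraries was left out (adjusted p 0.0649 to 0.297, edgeR) and with a replicate block for matched libraries (adjusted p = 0.0543). It was also lost in edgeR with DESeq2 size factors (adjusted p = 0.057) and without both small intestine Asbt+/+ libraries (0.198). Without hemoglobin, mitochondrial and Rn18s-rs5 counts the adjusted p was 0.0561 (edgeR). DESeq2 called Sqstm1 and Ifngr1, and limma-voom Sqstm1.

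Ifngr1, a chain of the interferon gamma receptor, was at 0.97 ± 0.23 in tissue, higher in 4 of 4 pairs, and did not pass in edgeR (adjusted p = 0.135). Canx, the chaperone calnexin of class I loading, was at 0.49 ± 0.22. The inducer of the immunoproteasome, Ifng, stood at 931 and 377, then 645 and 1110 CPM, in small intestine and at 592 and 318, then 217 and 419 CPM, in spleen. Ifng was higher in small intestine in each pair matched for hairpin and host, with an unadjusted p under 0.05 (edgeR). The tissues overlapped for Ifng, and it did not pass the adjusted threshold. Psmg3, Shfm1 and Nfe2l2, the genes of smallest p in their lists, were at -0.97 ± 0.84, 0.44 ± 0.32 and 0.95 ± 0.70.

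For hairpin, 0 of 53 passed in edgeR, DESeq2 and limma-voom, and 4 (7.55%) had an unadjusted p under 0.05, against 2.99% of all genes. Of the 6 genes in the list of assembly factors 2 were above 0 (median -0.17). Psmg1, Psmg2, Psmg4 and the inhibitor Psmf1 were at -0.14, -0.2, -0.48 and -0.4. Pomp, the chaperone that helps to assemble the beta ring of the 20S core, had the smallest p of this list and was like the beta genes. It stood at 959 and 697, then 1460 and 327 CPM, in small intestine and at 740 and 709, then 608 and 479 CPM, in spleen. Its log2 fold change was 0.76 ± 0.35, higher under the shMdr1 label in 4 of 4 pairs (adjusted p = 0.999, edgeR). Nploc4, a cofactor of VCP, was at 1.04 ± 0.45, Ngly1, which processes the regulator Nfe2l1, at -0.80 ± 0.46, and Canx at -0.54 ± 0.22. Shfm1, a small subunit of the 19S lid, was at -0.31 ± 0.31 and Uba1, the ubiquitin-activating enzyme, at 0.15 ± 0.28. Leaving out both small intestine Asbt+/+ libraries, these values were 0.84 for Pomp, 0.82 for Nploc4, -0.44 for Ngly1, -0.63 for Canx, -0.34 for Shfm1 and -0.05 for Uba1. Ifngr2 had the smallest p of its list and was near the limit of detection in the libraries labelled shMdr1, at a mean of 0.104 CPM.

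For host, 0 of 53 passed in edgeR, DESeq2 and limma-voom, and 2 (3.77%) had an unadjusted p under 0.05, near the 2.71% of all genes. These were Ddi2 and Ngly1, both of the machinery that releases active Nfe2l1. Ngly1 was at -1.11 ± 0.46 (adjusted p = 0.996, edgeR). All 6 ubiquitin genes were above 0 (median 0.37), with Ubb, which had the smallest p, at 0.44 ± 0.25, while 1 of the 6 regulators was (median -0.45), beside 57.3% of all genes. Tap1, the peptide transporter gene beside Psmb9 in the class II region, was at 0.42 ± 0.25, Psmg4, an assembly chaperone, at 0.58 ± 0.29, Adrm1, a ubiquitin receptor, at 1.02 ± 1.07, and Ufd1l, a VCP cofactor, at -0.42 ± 0.32.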

How the data were processed

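RNA from 8 libraries was analysed, 1 per combination of tissue, hairpin and host. Per the labels' protocols, cDNA was amplified by SMART-Seq v4 and prepared with a NEBNext kit; these kits add no molecular identifiers, so counts can include PCR copies. The deposited values are whole-number read counts per gene. TopHat, HTSeq, DESeq2 and the build mm9 are named in the submitters' processing notes; their versions, the annotation and the strandedness were not given in the sources used here. Overlapping, antisense and near-identical genes therefore have uncertain counts. Hairpins come from the sample titles, because another label names shMdr1 for every library.

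Counts were scaled by TMM, filtered with filterByExpr and fitted with the edgeR 4.0.16 quasi-likelihood model in R 4.3.3 (additive design, 4 residual degrees of freedom; 3 with an interaction); errors of fold changes are SEs of this fit over libraries, with Benjamini-Hochberg adjustment over 10000 genes. DESeq2 1.42.0, limma 3.58.1 voom and other settings were alternatives. Ratios had 0.5 added to each count, and pair ratios 1 CPM. Lengths and coding sequences come from GENCODE vM21 (GRCm38). The code was tested on simulated counts. Named genes were the immunosubunits, PA28 genes and their counterparts, the smallest p of each role and the 3 most positive and negative fold changes per factor; others were chosen after their values were seen. Of each further list, genes that passed and the smallest p per factor were named; 1 such result is not reported here. Members and lists were chosen with earlier results of these data known.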

Additional observations from a re-analysis of the deposited data

Results flagged for a closer look

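In 4 of the 70 sets of 4 libraries of a tissue that were examined, 1 library lay far from the other 3 relative to their whole range (Dixon's test); chance flags about 1 in 20 such groups. Psme3 was at 118 CPM in the shCD8 small intestine Asbt+/+ library and at 52.0 to 63.1 CPM in the other small intestine libraries. Psma3 was at 196 CPM in the shMdr1 spleen Asbt-/- library and at 185 to 186 CPM in the other spleen libraries. Psma4 was at 132 CPM in the shMdr1 small intestine Asbt-/- library and at 193 to 200 CPM in the others. The 7 alpha genes summed to 1980 CPM in the shCD8 small intestine Asbt-/- library and to 2520 to 2610 CPM in the other small intestine libraries.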

How the results depend on the processing

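Depth limits the low genes, such as Psmc3ip with 1 count in a library, and 1 library per combination limits every test. No proteasome gene was called for tissue, hairpin or host under any alternative. In the interactions, leaving out 1 library gave 0 to 1 called gene for tissue by hairpin and 0 to 1 for tissue by host, Psmd4 and Psmd3, and leaving out both small intestine Asbt+/+ libraries, added after seeing the data, gave 6 for tissue by hairpin and 0 for hairpin by host. The same could not be fitted for tissue by host, which has no such libraries left. The calls of Psmd4 and Psmd3 rest on the shCD8 small intestine Asbt+/+ library as the only one left of its kind. The cause was not tested for these or for the changes below. The labels carry no replicate numbers; a replicate block of matched libraries alike in the other factors changed no call of a proteasome gene (0 called in each factor), and lost that of Sqstm1. The counts of genes above 0 by role were added after seeing the data. Leaving out 1 library gave 6 to 7 of the 7 constitutive beta genes and 0 to 2 of the 6 ATPase genes above 0 for hairpin, and 26 to 35 of the 43 genes for tissue.

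Of 44 named gene and comparison values, none of which passed, 25 kept their direction under every alternative; over 792 alternative values 54 changed sign. With limma-voom the log2 fold change in tissue was -0.01 for Psmb7 and -0.29 for Psmc3ip. With library quality weights it was -0.13 for Psmb5, -0.17 for Psmb7 and -1.02 for Psmc3ip in tissue, -0.08 for Psmb9 and 0.03 for Psme1 by hairpin, and 0.10 for Psmb7 and -0.01 for Psmd10 by host. With the replicate block it was -0.03 for Psmb5 and -0.38 for Psmc3ip in tissue. Without both small intestine Asbt+/+ libraries it was 0.14 for Psmb8, -0.32 for Psmb7, 0.13 for Psmd10 and -0.15 for Psmc3ip in tissue, -0.09 for Psmb7 by hairpin, and -0.04 for Psmb8, -0.07 for Psmb9, 0.31 for Psmb7, -0.13 for Psmd10 and -0.03 for Psmc6 by host; the log2 ratio differences were -0.09 for Psmb8 to Psmb5 by hairpin and 0.13 for Psmb9 to Psmb6 by tissue.

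Leaving out 1 library at a time, the tissue value ranged from -0.14 to 0.34 for Psmb9, -0.35 to 0.28 for Psmb5, -0.25 to 0.57 for Psmb7, -0.68 to 0.14 for Psmd10 and -1.18 to 1.07 for Psmc3ip, and from 1.12 to 1.42 for Sqstm1. It kept its sign but moved by over 1.5 times for Psme2 (0.04 to 0.70), Psmb6 (0.09 to 0.66), Psme4 (0.09 to 1.06), Psmb8 (-0.31 to -0.04), Psmc5 (0.20 to 0.58), Psmd3 (-1.44 to -0.51), Psmd5 (-1.08 to -0.47) and Psme1 (0.16 to 0.34). So did the hairpin values of Psme2 (0.57 to 1.16), Psmb6 (0.43 to 0.99), Psmc6 (-0.88 to -0.41), Psmd13 (-1.44 to -0.52), Psmd5 (-1.22 to -0.59), Psmb8 (0.04 to 0.28) and Psmb10 (0.11 to 0.27), and the host values of Psmd3 (0.81 to 1.71), Psmb1 (-0.81 to -0.23), Psme3 (-0.73 to -0.30), Psmb6 (-0.59 to -0.02), Psmb8 (0.13 to 0.39) and Psmb10 (-0.26 to -0.10). The hairpin value ranged from -0.24 to 0.15 for Psmb9, -0.08 to 0.09 for Psme1, -0.29 to 0.28 for Psmb5 and -0.17 to 0.74 for Psmb7. The host value ranged from -0.24 to 0.23 for Psmb9, -0.06 to 0.14 for Psme1, -0.57 to 0.09 for Psme2, -0.01 to 0.60 for Psmb5, -0.45 to 0.48 for Psmb7, -1.54 to 0.68 for Psmc3ip, -0.15 to 0.62 for Psmd10 and -0.02 to 0.44 for Psmc6. The log2 ratio difference of Psmb8 to Psmb5 ranged from -0.34 to 0.03 by tissue, -0.05 to 0.32 by hairpin and -0.26 to 0.10 by host. That of Psmb10 to Psmb7 ranged from -0.01 to 0.62, -0.41 to 0.22 and -0.51 to 0.14, and that of Psmb9 to Psmb6 by tissue from -0.47 to 0.05.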
